A study of Mus musculus with 4 samples.

Results

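The aryl hydrocarbon receptor genes described here are 9 of the 41079 genes in the deposited table of lung RNA-seq counts. They were taken by gene symbol, and all 9 symbols were found once each: the receptor Ahr, its partner Arnt, the feedback genes Ahrr and Tiparp, the cytochrome P450 genes Cyp1a1, Cyp1a2 and Cyp1b1, and the enzyme genes Aldh3a1 and Nqo1. The study compared wild-type (WT) mice with mice that lack Rab44, a large Rab GTPase, with and without allergic airway inflammation induced by ovalbumin (OVA). Each genotype gave 1 library from normal and 1 from OVA-induced lungs, 4 in all. Rab44-KO mice were made with CRISPR/Cas9 on C57BL/6 and compared with littermates. All were females 8 to 14 weeks of age. OVA-induced mice were injected intraperitoneally with 100 µg OVA in alum on days 0, 7 and 14, then challenged intranasally for 4 days with 100 µg OVA in 50 µL, and lungs were taken on day 21. Normal mice have no treatment in their labels, while the accompanying protocol also describes a PBS challenge. The number of mice in a library is not stated in the sources used here.

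The aryl hydrocarbon receptor is a ligand-activated transcription factor that senses planar aromatic compounds, among them pollutants, plant compounds and tryptophan metabolites. It waits in the cytoplasm with the chaperone Hsp90, enters the nucleus on binding a ligand, pairs with Arnt, and binds DNA at the xenobiotic response element, whose core is GCGTG. Its best known target is Cyp1a1, an enzyme that oxidises many of the ligands themselves, and in lung Cyp1a1 is known to be inducible in endothelium and epithelium. Ahrr competes with the receptor for Arnt, and Tiparp, an ADP-ribosyltransferase, limits its activity, so that both act as feedback. Arnt also pairs with the hypoxia-inducible factors, and Nqo1 is controlled by NRF2 as well as by the receptor.

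Upstream sequences are shown for the P450 and feedback genes, the targets closest to the receptor, because the core motif can be read in them directly. Each is the 250 bases before the RefSeq start on GRCm38.p6, written 5′ to 3′ on the strand of the gene, with GCGTG or its reverse complement CACGC in capitals. The windows are chr9:57697363-57697612 (plus strand) for Cyp1a1, chr9:57683656-57683905 (minus) for Cyp1a2, chr17:79715062-79715311 (minus) for Cyp1b1, chr13:74292332-74292581 (minus) for Ahrr and chr3:65528197-65528446 (plus) for Tiparp.
Cyp1a1: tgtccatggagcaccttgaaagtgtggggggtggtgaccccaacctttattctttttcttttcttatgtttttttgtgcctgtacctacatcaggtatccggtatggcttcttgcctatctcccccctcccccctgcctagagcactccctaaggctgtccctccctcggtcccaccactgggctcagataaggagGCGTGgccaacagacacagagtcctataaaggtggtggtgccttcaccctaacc
Cyp1a2: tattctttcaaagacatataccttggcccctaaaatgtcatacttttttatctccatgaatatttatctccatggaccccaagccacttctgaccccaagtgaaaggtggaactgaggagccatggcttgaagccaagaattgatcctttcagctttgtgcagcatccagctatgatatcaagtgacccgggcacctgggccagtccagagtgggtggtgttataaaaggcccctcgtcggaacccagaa
Cyp1b1: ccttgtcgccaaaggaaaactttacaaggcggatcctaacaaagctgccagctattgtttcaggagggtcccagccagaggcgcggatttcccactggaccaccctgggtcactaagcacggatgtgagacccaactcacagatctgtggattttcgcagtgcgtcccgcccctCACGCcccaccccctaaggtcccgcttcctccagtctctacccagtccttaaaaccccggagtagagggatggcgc
Ahrr: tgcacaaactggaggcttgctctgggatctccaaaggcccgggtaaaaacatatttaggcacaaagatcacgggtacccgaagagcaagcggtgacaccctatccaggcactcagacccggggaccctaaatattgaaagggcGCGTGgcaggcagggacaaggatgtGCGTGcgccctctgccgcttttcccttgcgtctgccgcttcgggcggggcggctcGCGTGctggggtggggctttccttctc
Tiparp: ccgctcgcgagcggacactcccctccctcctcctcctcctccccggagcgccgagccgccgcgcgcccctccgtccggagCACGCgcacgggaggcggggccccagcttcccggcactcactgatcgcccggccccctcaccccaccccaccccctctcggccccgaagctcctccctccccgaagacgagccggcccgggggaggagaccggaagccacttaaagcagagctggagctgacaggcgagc
In Cyp1a1 a single GCGTG begins 54 bases before the start. Cyp1b1 holds a CACGC at 76 bases and Tiparp a CACGC at 170 bases before the start. Ahrr holds 3 matches, at 107, 82 and 27 bases, a number reached or passed in 2.77% of all 32817 windows of this length. The motif was found in 5 of the 7 members that have a window, Arnt included, against 28.1% of all windows and 4 of the 12 genes with a window among 18 other reported targets of the receptor, and neither the Cyp1a2 nor the Nqo1 window held it. A longer form, TNGCGTG with N for any base, occurred in 4.10% of all windows. Among the members with a window only Ahrr held it, and among the other reported targets Gsta2, Ptgs2 and Cdkn1b did. A match is a run of letters and not a binding site, and windows for Aldh3a1 and Ahr were not used here. Cyp1a1 (chromosome 9, 57687928 to 57703824, plus strand, GENCODE M21 on GRCm38) and Cyp1a2 (57676937 to 57683703, minus strand) are neighbours that point away from each other, with 4224 bases between these GENCODE spans. The RefSeq start behind the Cyp1a1 window lies inside its GENCODE span, so the windows shown are farther apart. No 150-base stretch of any member's transcripts was shared with another gene's.

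The counts summed to between 18112901 and 19910236 per library. Rab44 had 251 counts in normal WT and 810 in OVA-induced WT lungs against 1 and 0 in the Rab44-KO libraries, as the labels state. Every marker of lung epithelium, endothelium and fibroblasts listed for the check was detected in every library. Levels are CPM, the counts scaled to library size by edgeR's TMM method, and a small prior count was added before the log2 ratio of 2 libraries (log2FC) was taken. Ranges in parentheses are exact 95% intervals of the counts and cover counting error only. With 1 library per condition there is no replicate error and no test, so each difference is between libraries and not conditions. In whole lung, a change in the number of cells that express a gene and a change in RNA per cell cannot be told apart.

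Cyp1a1 was higher in the Rab44-KO library in both conditions and lower in the OVA-induced library in both genotypes. In WT it stood at 3.49 CPM (2.70 to 4.43, 67 counts) without and 1.55 CPM (1.05 to 2.21, 30 counts) with OVA, and in Rab44-KO at 187 CPM (181 to 194, 3418 counts) and 10.9 CPM (9.46 to 12.4, 212 counts). No pair of these intervals overlapped, and the highest and lowest libraries were the normal Rab44-KO and the OVA-induced WT. Rab44-KO over WT was 53.7-fold (42.2 to 69.4) in normal and 7.02-fold (4.78 to 10.7) in OVA-induced lungs. Of 13166 genes that reached 100 counts in either normal library this was the highest ratio, and it was in place 12 of 13704 in the OVA-induced comparison. By the same count, Nqo1 was in places 13 and 376, Aldh3a1 in 27 and 169, and Cyp1b1 in 46 and 1295. OVA-induced lungs were 2.25-fold lower (1.44 to 3.59) in WT and 17.2-fold lower (15.0 to 19.9) in Rab44-KO, where only 1 of 13484 genes had a lower ratio. The OVA-induced Rab44-KO library, although well under the normal Rab44-KO one, was still above both WT libraries.

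Cyp1a2, the neighbouring P450 gene and chiefly a liver enzyme, had 0 counts in all 4 libraries. Taking 3 counts as the limit that a count of 0 allows, a floor used here for zeros in place of the interval, its level was at most 0.154 to 0.164 CPM depending on the library. Cyp1b1, the P450 of the same family that is best known outside the liver, was higher in both Rab44-KO libraries and did not follow Cyp1a1 with OVA. Its levels in WT were 10.5 CPM (9.12 to 12.1) normal and 15.6 CPM (13.9 to 17.5) OVA-induced, against 20.6 CPM (18.6 to 22.8) and 24.9 CPM (22.7 to 27.2) in Rab44-KO. Both WT libraries lay below both Rab44-KO libraries, whose intervals barely overlapped. For genotype, Rab44-KO over WT, the log2FC came to 0.97 (0.72 to 1.22) in normal and 0.67 (0.46 to 0.89) in OVA-induced lungs. With OVA it was higher in both genotypes, by a log2FC of 0.57 (0.31 to 0.83) in WT and 0.27 (0.07 to 0.47) in Rab44-KO, the opposite direction to Cyp1a1.

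**Figure D1:**
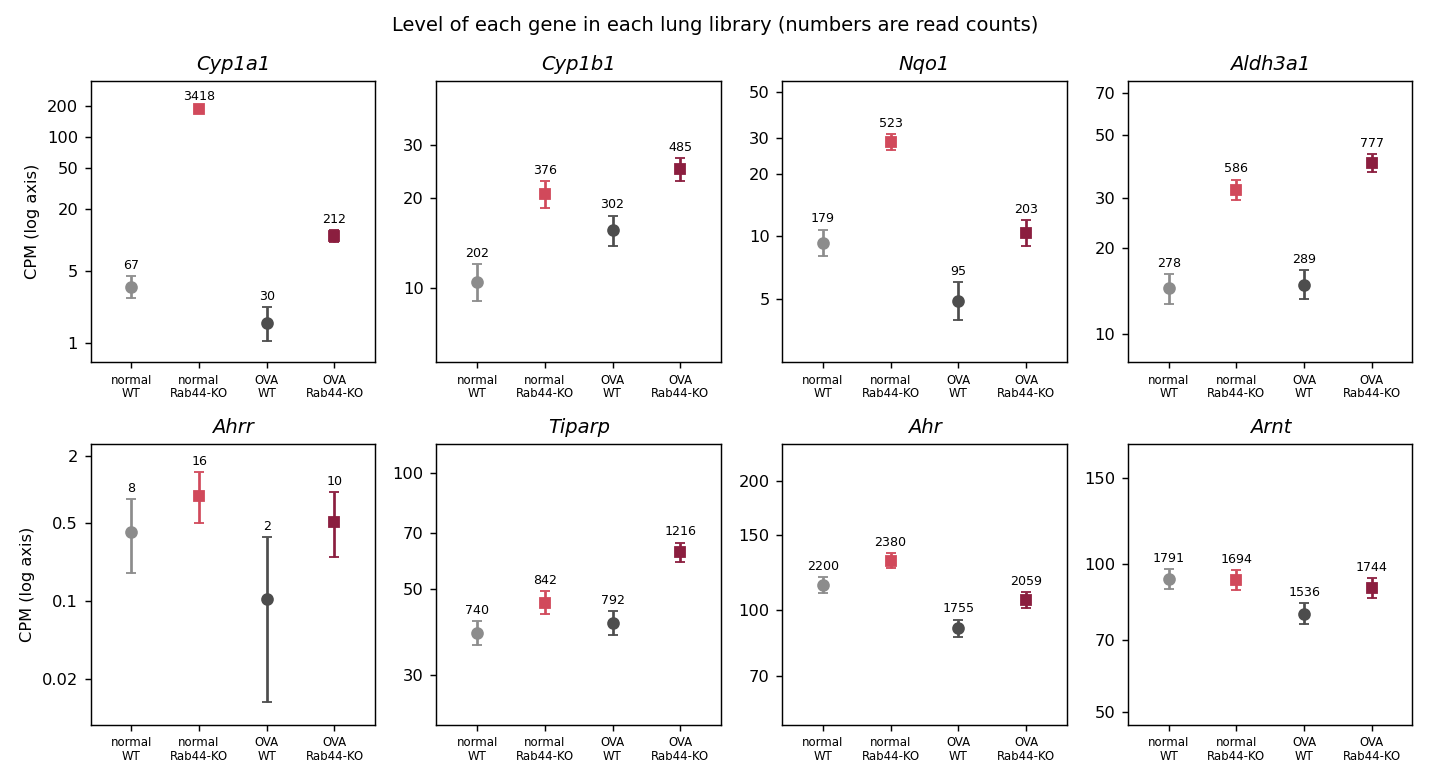
Level of each gene in the 4 libraries, in CPM on a log axis that differs between panels, with exact 95% Poisson intervals as bars and the counts printed beside the points. Cyp1a1 spans 1.55 to 187 CPM, while Ahr and Arnt stay between 79.3 and 130.4 CPM.

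Aldh3a1 and Nqo1, which oxidise aldehydes and reduce quinones respectively, were over 2-fold higher in the Rab44-KO library in both conditions and parted with OVA. Aldh3a1 was at 14.5 CPM (12.8 to 16.3) in normal WT and 14.9 CPM (13.3 to 16.7) in OVA-induced WT, against 32.1 CPM (29.6 to 34.8) in normal and 39.9 CPM (37.1 to 42.8) in OVA-induced Rab44-KO lungs. The WT libraries overlapped each other and lay apart from the Rab44-KO libraries. Nqo1 in WT was at 9.32 CPM (8.01 to 10.8) normal and 4.91 CPM (95 counts) OVA-induced, and in Rab44-KO at 28.7 CPM (26.3 to 31.2) and 10.4 CPM (9.03 to 11.9). For Nqo1 it was the normal WT and OVA-induced Rab44-KO libraries that overlapped. Rab44-KO over WT was 2.22-fold (1.92 to 2.57) and 2.67-fold (2.33 to 3.07) for Aldh3a1 and 3.07-fold (2.59 to 3.66) and 2.12-fold (1.66 to 2.74) for Nqo1, in normal and OVA-induced lungs. Like Cyp1a1, Nqo1 was lower with OVA in both genotypes, 1.90-fold (1.47 to 2.46) in WT and 2.75-fold (2.34 to 3.25) in Rab44-KO.

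Of the feedback genes, Ahrr was counted too rarely to be placed and Tiparp differed by less than 2-fold everywhere. Ahrr had 8 counts in WT without and 2 with OVA, against 16 and 10 in the Rab44-KO libraries. Its ratio of Rab44-KO over WT was 2.10 (0.850 to 5.68) in normal lungs, an interval that includes equality, and 4.97 (1.06 to 46.6) in OVA-induced lungs. Tiparp in WT was at 38.5 CPM (35.8 to 41.4) normal and 40.9 CPM (38.1 to 43.8) OVA-induced, and in Rab44-KO at 46.1 CPM (43.1 to 49.4) and 62.4 CPM (58.9 to 66.0). The OVA-induced Rab44-KO library stood above the others, and the 2 WT libraries overlapped. Its log2FC for genotype was 0.26 (0.12 to 0.40) in normal and 0.61 (0.48 to 0.74) in OVA-induced lungs.

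The receptor and its partner differed by less than 2-fold in every comparison. Ahr was at 115 CPM in WT without and 90.6 CPM with OVA, and at 130.4 and 106 CPM in the Rab44-KO libraries. Arnt was at 93.3 and 79.3 CPM in WT and at 92.8 and 89.5 CPM in Rab44-KO. Ahr was higher in Rab44-KO by a log2FC of 0.19 (0.10 to 0.27) in normal and 0.22 (0.13 to 0.31) in OVA-induced lungs, and lower with OVA in both genotypes, with a log2FC of -0.34 (-0.43 to -0.25) in WT and -0.30 (-0.39 to -0.22) in Rab44-KO. Its genotype value in OVA-induced lungs depended on the scaling, at 0.06 once the trend along transcript length was removed and 0.55 with TPM. The Arnt log2FC for genotype was -0.01 (-0.10 to 0.09) in normal and 0.17 (0.07 to 0.27) in OVA-induced lungs, the latter 0.50 with TPM.

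Of the 8 members that reached 10 counts in either library compared, 4 were over 2-fold higher in the Rab44-KO library in normal lungs, namely Cyp1a1, Ahrr, Aldh3a1 and Nqo1, where 2.77% of all genes with that many counts were. The same 4 genes were over 2-fold higher in OVA-induced lungs, where 8.4% of genes were, and 0.74% of genes were over 2-fold higher in both conditions. Ahrr reached 10 counts only in the Rab44-KO library of each pair, which fixes its direction, and without it 3 of 7 members were over 2-fold higher in each condition. No member was over 2-fold lower, against 2.0% and 7.34% of genes in the respective conditions and 0.291% in both. The counting interval lay wholly above no change in both conditions for 6 members, Cyp1a1, Cyp1b1, Tiparp, Aldh3a1, Nqo1 and Ahr, and for 7.29% of genes, with the TMM scaling used here. The median log2FC of the members was 1.02 in normal and 0.88 in OVA-induced lungs, beside 0.00 and -0.02 over all genes. The members were chosen by their known place in the pathway and selected on these same libraries, with the Rab44-KO over WT and OVA values of such genes already known, and nothing is read from their distance to the background. With at least 100 counts required, 16 genes were over 2-fold higher in both conditions, 0.123% of 12971, and 3 of them were members (Cyp1a1, Aldh3a1 and Nqo1). The other 13, listed after their values were seen, were Cyp26b1, Ces1g, Gm15501, Siglech, Ces1f, Ugt1a6a, Fos, Fosb, Zfp36, Gm57766, Il36g, Acsm1 and Angptl4. Among them Ugt1a6a, a glucuronosyltransferase and a reported receptor target, had a log2FC of 1.54 in normal and 1.37 in OVA-induced lungs.

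**Figure D2:**
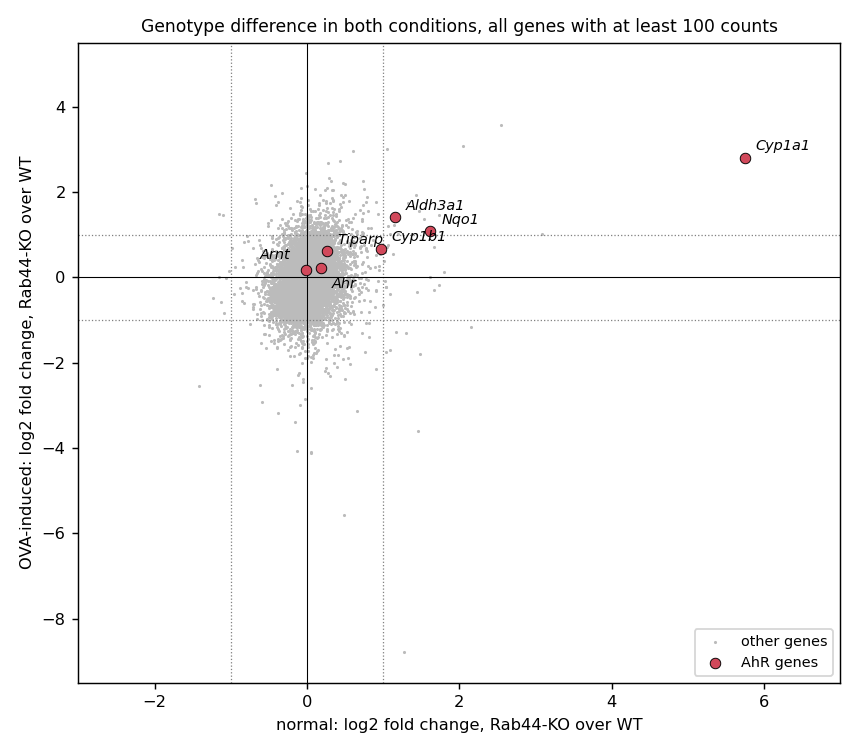
The log2FC of Rab44-KO over WT in OVA-induced lungs (vertical axis) against normal lungs (horizontal axis) for 12971 genes with at least 100 counts, with 7 members marked and 1 gene, Rab44, outside the axes. Cyp1a1 lies at 5.74 and 2.81, Nqo1 and Aldh3a1 lie beyond 1 on both axes, and Ahr and Arnt lie near the origin.

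The comparisons with OVA showed another order. In WT, 0 of the 7 members that reached 10 counts were over 2-fold higher, where 8.99% of genes were, and 1, Cyp1a1, was over 2-fold lower, where 5.2% of genes were. In Rab44-KO, 0 of 8 were over 2-fold higher against 6.44% of genes, and 2, Cyp1a1 and Nqo1, were lower against 3.85%. The OVA-induced Rab44-KO library is part of both its genotype and its OVA comparison, so these are not separate measurements.

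**Figure D3:**
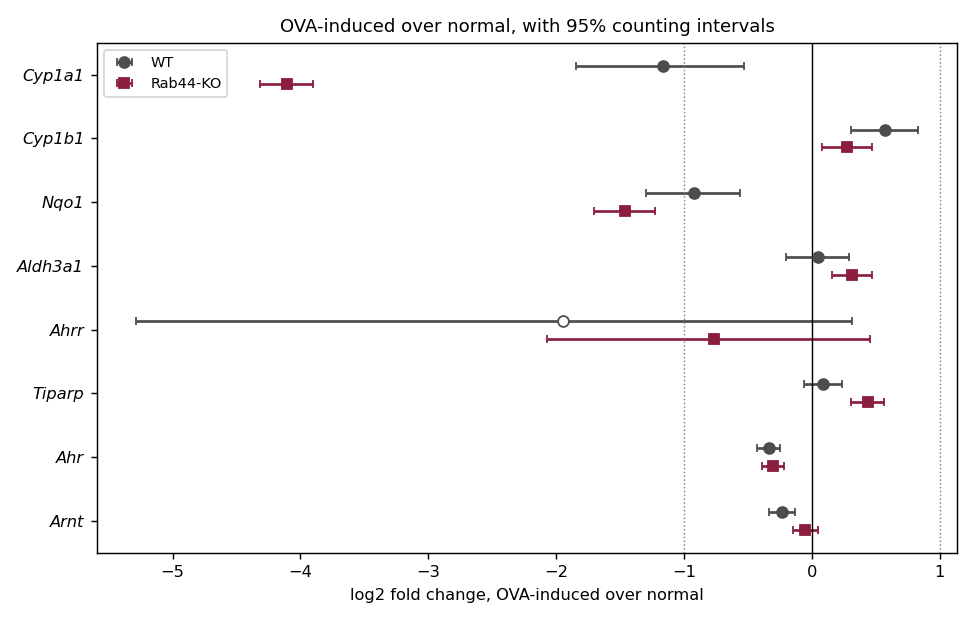
The log2FC of OVA-induced over normal lungs for each gene in WT and Rab44-KO, with exact 95% counting intervals as bars and open markers for fewer than 10 counts in the higher library. Cyp1a1 is at -1.17 in WT and -4.11 in Rab44-KO, Nqo1 is at -0.93 and -1.46, and Cyp1b1 lies above 0 in both.

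To separate genotype from OVA, the log2FC for genotype was averaged over the 2 conditions, the log2FC for OVA over the 2 genotypes, and the difference between the 2 genotype values was taken with its own counting interval (normal approximation for the averages, exact for the difference). For Cyp1a1 all 3 parts were large: 4.27 (3.95 to 4.60) for genotype, -2.64 (-2.96 to -2.31) for OVA, and a genotype log2FC that was lower in OVA-induced than in normal lungs by -2.94 (-3.61 to -2.23). Nqo1 had the same 3 signs in smaller size, at 1.35 (1.14 to 1.57) for genotype, -1.19 (-1.41 to -0.98) for OVA and -0.53 (-0.98 to -0.09) for the difference. In these 2 genes the OVA difference was thus larger in Rab44-KO than in WT. Aldh3a1 was mainly a genotype difference, 1.28 (1.14 to 1.42), with 0.18 (0.04 to 0.32) for OVA and a difference of 0.27 (-0.02 to 0.56). Cyp1b1 had 0.82 (0.66 to 0.98) for genotype, 0.42 (0.26 to 0.58) for OVA and a difference of -0.30 (-0.63 to 0.04), with intervals of the difference that include 0 for both genes. These differences depended on the scaling: with TPM, which raised the median genotype log2FC of all genes in OVA-induced lungs by 0.32, they were 0.57 for Aldh3a1, 0.01 for Cyp1b1, -0.25 for Nqo1 and -2.69 for Cyp1a1. Tiparp went the other way from Cyp1a1, with a genotype log2FC higher in OVA-induced lungs by 0.35 (0.15 to 0.55), or 0.65 with TPM. For Ahr the OVA part was -0.32 (-0.38 to -0.26) and the genotype part 0.20 (0.14 to 0.27). With 2 counts in 1 library, Ahrr had a difference of 1.18 (-1.51 to 4.73).

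Per length, in the deposited abundances (TPM, scaled to gene length and depth), the order of the members differed between libraries. In normal WT, Ahr and Arnt led at 49.6 and 48.7 TPM and Cyp1a1 was in place 7 at 2.98 TPM. In normal Rab44-KO, Cyp1a1 led at 163 TPM, ahead of Ahr at 57.5 TPM. In OVA-induced WT, Cyp1a1 was again in place 7 at 1.17 TPM, and in OVA-induced Rab44-KO, Aldh3a1 led at 57.4 TPM with Cyp1a1 in place 6 at 10.3 TPM.

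Other genes of the pathway did not share one direction. For comparison, 2.77% of all genes were over 2-fold higher and 2.0% lower in Rab44-KO in normal lungs. In OVA-induced lungs the shares were 8.4% and 7.34%, and with OVA in WT 8.99% of genes were higher. Among the 7 listed genes of the sensor and its partners, which include Ahr, Arnt and Ahrr, only Ahrr was over 2-fold different for genotype in normal lungs, and Ahrr and Arnt2 were in OVA-induced lungs. The chaperone genes Hsp90aa1, Hsp90ab1 and Ptges3 of this list lay between -0.18 and 0.45 for genotype. Arnt2, an alternative to Arnt, had 113 counts in the OVA-induced WT library against 34 in the OVA-induced Rab44-KO one, a log2FC of -1.74, and 29 and 21 in the normal libraries. Of 8 genes that make or remove ligands, mostly from tryptophan, 6 passed the count minimum. In normal lungs 0 were over 2-fold different, and in OVA-induced lungs 2 were lower in Rab44-KO, Tdo2 (-2.14) and Kynu (-1.77). Of these 6, 1 had a genotype log2FC above 0 in normal lungs and 0 did in OVA-induced lungs, with medians of -0.14 and -0.93. Tdo2, which opens the tryptophan ring, had 145 counts and Kynu, a kynureninase, 339 in the OVA-induced WT library, which stood apart from the other libraries at 32 to 36 and 60 to 100 counts. With OVA in WT both were over 2-fold higher, by a log2FC of 2.16 for Tdo2 and 2.22 for Kynu, and Arnt2 by 1.95.

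Of 18 further reported targets of the receptor, 13 had at least 10 counts in normal lungs and 2 were over 2-fold higher in Rab44-KO, Ugt1a6a and Ugt1a6b. In OVA-induced lungs 14 did, with the same 2 higher and 1, Scin, lower. Their median log2FC was 0.19 and 0.02 in the 2 comparisons. Over all genes, 2.77% were higher and 2.0% lower in normal lungs, and 8.4% and 7.34% in OVA-induced lungs. Ugt1a6b had 22 counts in WT without and 5 with OVA, against 81 and 43 in Rab44-KO, the same order of libraries as Cyp1a1. Of the 150-base stretches of Ugt1a6a transcripts 49.1% also occur in another gene, and of Ugt1a6b 65.4%, so the values of these 2 genes are uncertain. Scin, an actin-severing protein, had 321 counts in OVA-induced WT against 11 to 19 elsewhere. With OVA, 15 of the 18 passed the count minimum in either genotype. The shares of all genes higher and lower were 8.99% and 5.2% in WT, and 6.44% and 3.85% in Rab44-KO. In WT 4 were over 2-fold higher, Scin (4.13), Serpinb2 (2.78), the amino acid carrier Slc7a5 (1.25) and Gpr15, and 3 lower, Ugt1a6b, Gsta1 and Gsta2 (-1.31). In Rab44-KO, Serpinb2 was higher, and Ugt1a6b (-1.01), Gsta1 and the prostaglandin synthase Ptgs2 (-1.68) were lower. Gsta1 and Gsta2 are closely related copies whose reads the counting could split, so their values are uncertain too. Il22, a cytokine made under control of the receptor, had 0 counts in all 4 libraries.

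Arnt and Nqo1 also belong to other pathways, whose genes are given for comparison. The shares of all genes over 2-fold higher and lower in Rab44-KO were 2.77% and 2.0% in normal lungs. They were 8.4% and 7.34% in OVA-induced lungs, and 8.99% and 5.2% with OVA in WT. Of 3 other partners of Arnt, 0 were over 2-fold different in normal lungs and 2 were higher in OVA-induced Rab44-KO, Epas1 (1.13) and Hif3a (1.02), both hypoxia-inducible factors. Of the 12 genes of the NRF2 list, which are NRF2 itself (Nfe2l2, also among the 18 reported receptor targets), its inhibitor Keap1 and 10 targets, 1 was over 2-fold higher in normal Rab44-KO, the cystine carrier Slc7a11 (2.15), and 11 of 12 had a log2FC above 0, with a median of 0.41. In OVA-induced lungs 11 had at least 10 counts, 0 were higher and 2 were lower in Rab44-KO, Hmox1 (-1.21) and Slc7a11 (-1.17), with a median of -0.10. With OVA in WT, 4 were higher, Slc7a11 (2.66), Hmox1 (1.34), Me1 (1.11) and Gsr (1.02), and 2 lower, Gsta1 and Gsta2, which stand in both lists, while Nqo1 was at -0.93. The Nqo1 log2FC was thus beside an NRF2 list with a median above 0 in normal lungs and below 0 in OVA-induced lungs, and its part in the Nqo1 result was not tested.

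**Figure D4:**
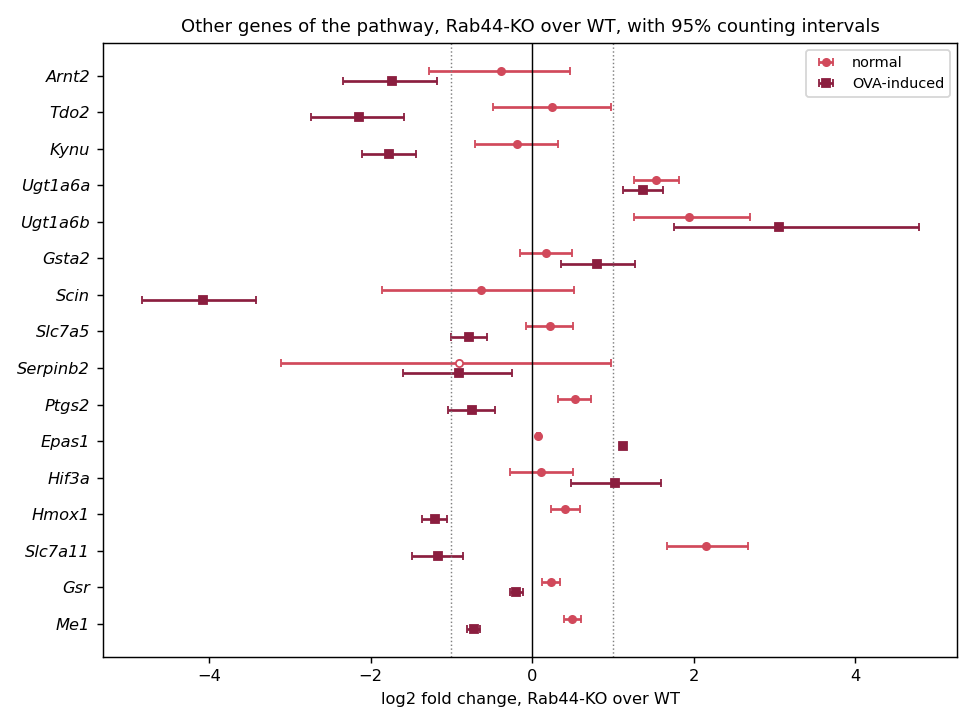
The log2FC of Rab44-KO over WT in normal and OVA-induced lungs for 16 other genes of the receptor, Arnt partner and NRF2 lists that were over 2-fold different in any of the 4 comparisons and reached 50 counts in the higher library, with exact 95% counting intervals as bars, dotted lines at 2-fold and an open marker for fewer than 10 counts in the higher library. Ugt1a6a and Ugt1a6b lie above 1 in both conditions, while Slc7a11 lies at 2.15 in normal and -1.17 in OVA-induced lungs.

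The members' values were set beside markers of the cells that could carry them. Over all genes, 2.77% were over 2-fold higher and 2.0% lower in Rab44-KO in normal lungs, and 8.4% and 7.34% in OVA-induced lungs. The summed CPM of 10 endothelial markers was 4497 in normal WT and 4422 in normal Rab44-KO, a log2 ratio of -0.02, and 3613 and 4694 in the OVA-induced libraries, a log2 ratio of 0.38. In that pair 2 of the 10, Vwf and Tek (1.01), were just over 2-fold higher, while the capillary marker Car4 was at -0.70. The 8 club cell markers summed to a log2 ratio of 0.04 in normal and 0.23 in OVA-induced lungs, with 1 of 8, Bpifa1, over 2-fold higher in the OVA-induced pair. Scgb1a1, the most abundant of them, was at -0.03 and 0.14, while the median of the 8 was 0.26 in normal lungs, with 7 of 8 above 0, and 0.61 in OVA-induced lungs, with 6 of 8 above 0. Cyp2f2, a club cell P450, was at 0.37 and 0.91. Most of these markers were thus higher in Rab44-KO, as the members were, and their part in the members' values was not tested. The 8 alveolar type 2 markers summed to 0.00 and -0.73, with Sftpc (-1.01) over 2-fold lower in the OVA-induced pair. In normal lungs no marker of endothelial, club or alveolar cells was over 2-fold different. The epithelial keratin genes Krt5 (1.30) and Krt15 (1.21), whose low counts are given below, were over 2-fold higher in normal Rab44-KO. The part of any of these markers in the Cyp1a1 value was not tested. Markers of leukocytes were higher with OVA, by a log2 ratio of 1.37 in WT and 1.04 in Rab44-KO for their summed CPM, beside the lower Cyp1a1 and Nqo1. Club cell markers were lower with OVA, by -0.52 in WT and -0.34 in Rab44-KO for the sum and with medians of -0.80 and -0.39, and 8 of 8 were below 0 in Rab44-KO. Between the OVA-induced libraries, leukocyte markers summed to a log2 ratio of -0.29 for genotype with a median of -0.53, with Cd3e (-1.01), Itgax (-1.48) and Adgre1 (-1.04) over 2-fold lower in Rab44-KO and Ly6g (1.13) higher. The 9 fibroblast markers summed to -0.23 there, with Lum (-1.41) and Tcf21 (-1.14) over 2-fold lower. In the normal pair both sums were near 0, at 0.04 and -0.08, and the part of these markers in the members' genotype values was not tested. With OVA, the summed endothelial, alveolar type 1 and fibroblast markers were at log2 ratios of -0.32, -0.47 and -0.25 in WT. In Rab44-KO they were at 0.09, -0.20 and -0.40. Alveolar type 2 markers were at 0.55 in WT and -0.18 in Rab44-KO. The part of leukocyte, club cell and these other markers in the lower Cyp1a1 and Nqo1 was not tested. The 10 markers of stratified squamous epithelium, where Aldh3a1 is abundant, summed to 3.85 CPM in WT without and 1.55 CPM with OVA, and to 7.01 and 3.18 CPM in the Rab44-KO libraries. Their log2 ratio for genotype was 0.86 and 1.04, beside 1.15 and 1.42 for Aldh3a1, with Krt6a and Krtdap at 0 in all 4 libraries. These sums rest on few counts, and on different genes in each pair. In the normal pair Krt15 (29 in WT and 64 in Rab44-KO) and Krt5 (11 and 26) were higher in Rab44-KO, with Sprr1a at 5 and 3. In the OVA-induced pair Sprr1a (2 and 19) and Trp63 (12 and 25) were higher, with Krt15 at 2 and 2 and Krt14 at 12 and 8. Their part in the Aldh3a1 result was not tested. Of 10 hepatocyte markers, Apoa1, Fgb, Serpina1a, Cyp3a11 and Cps1 were at 0 in both normal libraries and at 1 to 10 counts in the OVA-induced ones, where no marker of the list was at 0. Alb had 10 and 12 counts in the normal WT and Rab44-KO libraries and 90 and 54 with OVA. Apoa2, at 152 to 188 counts, and Cyp2e1, at 154 to 540 counts, were detected throughout. The summed CPM of the list was between 24.7 and 39.3, beside 0 counts for Cyp1a2.

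Likeness of other genes to Cyp1a1 over the 4 libraries was taken as the Euclidean distance between log2 CPM profiles, each centred on its own mean, over 13899 genes with at least 100 counts in their highest library. The nearest were Ces1g at 3.02, Xlr3b at 3.23, Nqo1 at 3.47, and Ces1f and Fos at 3.54. This measure weighs the size of differences as well as their order. The ratios of Cyp1a1 were larger for genotype in normal lungs and for OVA in Rab44-KO. For genotype in OVA-induced lungs Ces1g had a larger log2FC, 3.08 against 2.81. For OVA in WT, Ces1g (-1.66), Fos (-1.36) and Ces1f (-1.21) were further below 0 than Cyp1a1 (-1.17). All 5 genes ranked the libraries as Cyp1a1 does, as Ces1g did with 675 counts in normal Rab44-KO, 469 in OVA-induced Rab44-KO, 172 in normal WT and 55 in OVA-induced WT. Around Cyp1b1, whose profile is flatter, the nearest were Nr4a1 at 0.10, Iyd at 0.11, Igfbp5 and Plch1 at 0.14 and Rsad2 at 0.16.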

How the data were processed

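Lung RNA was sequenced in 4 libraries, assigned to conditions by their labels. The authors aligned reads from a directional kit to GRCm38 with HISAT2 and deposited raw counts per gene from featureCounts, together with TPM. Versions, strand setting and handling of reads with several matches are not given in the sources used here. Depth limits precision to the intervals printed, which cover counting error only. No per-sample column was left unmapped.

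Counts were scaled by TMM (factors 0.973 to 1.02) with edgeR 4.0.16 in R 4.3.3. Ratios and intervals were computed in Python 3.11.15 (scipy 1.17.1, pandas 2.3.3, numpy 2.4.6), and plots drawn with matplotlib 3.10.9. The log2FC used a prior count of 0.125. Genes needed at least 10 counts in the higher library, a log2FC beyond 1 was called over 2-fold, and 3 counts was the floor for a count of 0. No p-value was computed, since 2 libraries leave no residual degrees of freedom. The calculation was checked on simulated data.

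The members and gene lists were chosen with earlier results of these data known. Named genes are the members, list genes over 2-fold different that reached 50 counts in either library, and the 5 nearest profiles of Cyp1a1 and Cyp1b1. Gpr15, Gsta1, Il22, Nfe2l2, Keap1 and the chaperone genes were named after their values were seen, as were the 13 genes said to be so and the markers. Deposited gene starts equalled those of GENCODE M21 for 0 of 9 members, so gene positions are from GENCODE M21 by identifier and upstream windows from RefSeq by symbol. No coordinate was converted. 1 further gene, beyond the 7 of the sensor list, is not reported here. Alternatives were other scalings (DESeq2 1.42.0 size factors, total counts and others), TPM, another prior count, removal of the trend along transcript length, other count minimums and stricter calls.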

Additional observations from a re-analysis of the deposited data

How the results depend on the processing

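No paired analysis was possible because each condition has 1 library and the labels share no replicate numbers. Of 31 member log2FC, 27 kept their sign in each alternative that gave a value. The exceptions were Arnt for genotype in normal lungs and for OVA in Rab44-KO, and Tiparp and Aldh3a1 for OVA in WT, all with intervals that include 0. The Cyp1a1 log2FC stayed between 5.70 and 5.76 and between 2.73 and 3.03 for genotype in normal and OVA-induced lungs. Members over 2-fold higher in Rab44-KO numbered 4 in both conditions. A prior count of 2 and TPM each left 3 in normal lungs, where the Ahrr log2FC was 0.91 and 0.78, and a minimum of 50 counts, which Ahrr does not reach, left 3 in both. With an absolute log2FC above 2 they were 1 in normal and 2 in OVA-induced lungs, and with intervals wholly beyond 2-fold 2 and 2. Members lower with OVA in WT, 1 at first, were 2 with TPM, 2 at a minimum of 1 count, 0 above a log2FC of 2 and 0 with intervals beyond 2-fold. In Rab44-KO, 2 became 1 above a log2FC of 2. TPM moved the median of all genes by 0.32 for genotype in OVA-induced lungs, where Tiparp reached 0.93, Ahr 0.55 and Arnt 0.50 (Ahr 0.06 with the length trend removed), -0.17 for OVA in WT and 0.12 for OVA in Rab44-KO. Genes over 2-fold higher and lower for genotype were 519 and 374 in normal and 1617 and 1413 in OVA-induced lungs, but 2602 and 777 in the latter with TPM, so the higher share moved from 53.4% to 77.0%. For OVA in Rab44-KO, TPM moved 1229 and 734 to 1287 and 481 (62.6% to 72.8%), and for OVA in WT 1710 and 989 to 1273 and 1102, a higher share of 53.6%. At a minimum of 1 count genotype gave 3068 and 2521 in normal and 4404 and 3552 in OVA-induced lungs, at 50 counts 75 and 26, and 754 and 791. Above a log2FC of 2 they were 106 and 74, and 350 and 413, and with intervals beyond 2-fold 51 and 19, and 412 and 532. For OVA, a minimum of 1 count gave 4219 and 3325 in WT and 3937 and 3136 in Rab44-KO, and 50 counts 989 and 361, and 478 and 285. A log2FC above 2 gave 647 and 217, and 371 and 129, and intervals beyond 2-fold 814 and 200, and 365 and 147. The cause of these moves, beyond the filters themselves, was not tested. Depth limits Ahrr and Cyp1a2 most.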
